A study of Mus musculus with 6 samples.

Results

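The 39 protein-coding Hox genes of the mouse were described as sites of LncMyoD-bound DNA. They are all the protein-coding genes of mm10 RefSeq whose symbol is Hoxa, Hoxb, Hoxc or Hoxd followed by a digit, 39 of 21887 protein-coding genes. They lie in 4 clusters: 11 genes in Hoxa on chromosome 6, 10 in Hoxb on chromosome 11, 9 in Hoxc on chromosome 15 and 9 in Hoxd on chromosome 2. Each cluster was taken from its first to its last gene end with 100 kb on either side, and the 4 windows held 60 of 97115 shared regions, a shared region being the union of overlapping peaks (1 bp or more) with at least 1 from each replicate's list. The data are ChIRP-seq, in which biotin-labelled probes pull down an RNA together with the DNA it is bound to. Myotubes were formed from primary C57BL/6 myoblasts in 2% horse serum over 2 days. All 6 samples had this strain and treatment, and the 3 groups were capture with the odd-numbered probes, capture with the even-numbered probes, and input DNA, with 2 replicates each. Each of the 2 deposited peak lists bears a name common to the 3 samples of a replicate, so the probe pools and the input could not be set apart. No list of probes against an unrelated RNA was used here, and the labels do not say whether replicates were separate cultures. The lists hold DNA positions and no transcript levels, so the myotube label could not be checked against marker genes, and Hox expression was not measured.

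Hox genes encode homeodomain transcription factors that give cells their position along the body axis. Within a cluster the genes stand in the order in which they are used from head to tail, and genes with the same number in different clusters are paralogues. Polycomb and Trithorax complexes keep the clusters silent or active, and long non-coding RNAs such as Hotair and Hottip are transcribed from within or beside them. LncMyoD is a long non-coding RNA made next to Myod1 in differentiating muscle cells.

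Among the Hox starts listed in the promoter table, a shared region covered that of Hoxd10, a posterior gene known for its part in limb and spinal cord patterning. This table (RefSeq, GRCm38.p6) holds 24 promoter windows of 22 of the 39 members, each from 250 bases before to 50 after a start. A shared region overlapped 1 of the 24, against 9.92% of 21263 promoter windows of protein-coding genes. Members without an entry include Hoxb13 and Hoxc13, each with a shared region over an end of the gene. The count thus leaves out their starts and does not describe all Hox promoters. Peaks of replicate 1 lay over 3 Hox windows (10.4% of all) and peaks of replicate 2 over 1 (12.7% of all). The Hoxd10 region (chr2:74691547-74692625) had folds of 27.5 and 17.0 in replicates 1 and 2, and its summits lay 55 and 8 bp downstream of the start site. This start lies inside the Hoxd10 gene record, which runs from 74684273 to 74695106. The start of Hoxa9 was covered in replicate 1 alone, and Hoxd13 had no peak of either list within 5 kb. The 250 bases before the start of these 3 genes are shown to compare a start with a shared region, with a peak of 1 list and with none. Capitals mark the letters CANNTG, the E-box that bHLH factors such as MyoD bind, which read the same on both strands and were searched along with overlapping copies.

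Hoxd10, chr2:74691641-74691890, plus strand: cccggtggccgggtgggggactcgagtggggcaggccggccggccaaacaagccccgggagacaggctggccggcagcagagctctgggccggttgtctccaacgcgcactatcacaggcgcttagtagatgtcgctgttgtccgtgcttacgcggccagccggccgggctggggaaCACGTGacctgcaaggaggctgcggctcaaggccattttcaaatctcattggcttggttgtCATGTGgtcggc
Hoxa9, chr6:52227371-52227620, minus strand: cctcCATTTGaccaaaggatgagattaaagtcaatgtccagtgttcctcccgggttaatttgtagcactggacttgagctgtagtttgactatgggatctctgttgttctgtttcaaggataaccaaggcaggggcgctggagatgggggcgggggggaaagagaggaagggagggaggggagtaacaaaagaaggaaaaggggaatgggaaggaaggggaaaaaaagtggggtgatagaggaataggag
Hoxd13, chr2:74667975-74668224, plus strand: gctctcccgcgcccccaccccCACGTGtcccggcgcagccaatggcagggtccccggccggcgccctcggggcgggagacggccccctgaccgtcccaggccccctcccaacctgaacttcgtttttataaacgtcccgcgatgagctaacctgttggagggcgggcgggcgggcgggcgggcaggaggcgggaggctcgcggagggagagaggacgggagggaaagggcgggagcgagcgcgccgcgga

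The Hoxd10 stretch held 2 such motifs, the Hoxa9 stretch 1 and the Hoxd13 stretch 1. Over all Hox stretches 17 of 24 held at least 1, against 62.8% of all 250-base stretches. The narrower form CAGCTG was in 3 of the 24 and in 12.1% of all. The median GC content of the Hox stretches was 58.6%, with 55.6% for all stretches and 60.0% for those under a shared region. The median ratio of observed to expected CpG was 0.72 in Hox stretches and 0.53 in all.

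The windows differed in how many shared regions they held. Hoxa had 19 in 306 kb, or 62.2 per Mb, 1.75 times the 35.6 per Mb of the rest of chromosome 6. Hoxc had 16 in 316 kb (50.7 per Mb), 1.39 times the rest of chromosome 15, and Hoxb had 18 in 374 kb (48.1 per Mb), 1.14 times the rest of chromosome 11. Hoxd had 7 in 297 kb (23.6 per Mb), 0.634 times the rest of chromosome 2. Counted in the lists of replicates 1 and 2 alone, the ratios of peaks per Mb were 1.93 and 1.74 for Hoxa, 1.38 and 1.23 for Hoxc, 1.18 and 1.13 for Hoxb, and 0.838 and 0.824 for Hoxd. The order of the clusters was the same in both lists. With flanks of 250 kb in place of 100 kb the Hoxa ratio was 1.11 and the Hoxb ratio 0.917, and with no flanks the Hoxd ratio was 1.39. No test was run on these densities, because the 2 lists represent a single condition.

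Each chromosome was also cut into stretches as long as its Hox window, laid end to end from the window outward. Of 488 stretches of chromosome 6, with a median of 10 regions and quartiles of 7 and 14, 38 (7.79%) held at least the 19 regions of Hoxa. On chromosome 15, 69 of 327 stretches (21.1%) held at least the 16 of Hoxc, and on chromosome 11, 124 of 324 (38.3%) held at least the 18 of Hoxb. On chromosome 2, 493 of 600 stretches (82.2%) held at least the 7 of Hoxd. All 4 windows lay inside the range of their chromosome, which reached 29, 34, 37 and 32 regions per stretch on chromosomes 6, 15, 11 and 2.

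**Figure D1:**
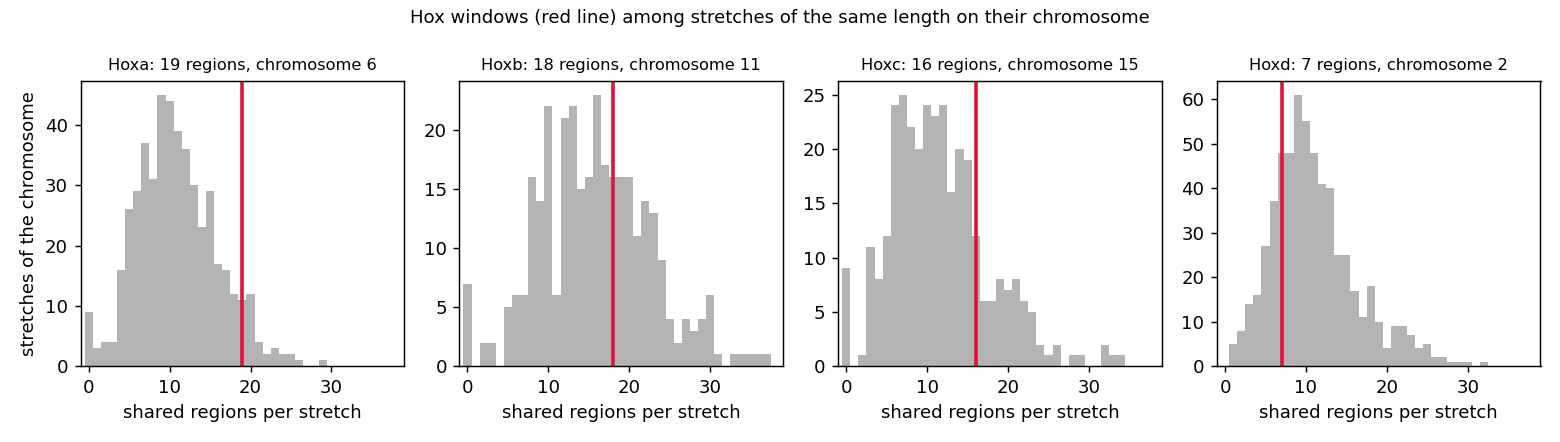
Histograms of the number of shared regions (horizontal axis) over stretches of each chromosome as long as the Hox window on it (vertical axis, number of stretches), with the Hox window as a red line. Hoxa at 19 regions stands in the upper tail, Hoxb at 18 and Hoxc at 16 nearer the middle, and Hoxd at 7 below the median of 10.

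Genes and flanks contributed differently in each cluster. Between the first and last Hox gene end, Hoxc held 8 regions (69.1 per Mb, 1.89 times the rest of its chromosome), Hoxd 5 (51.6 per Mb, 1.39 times), Hoxa 5 (47.4 per Mb, 1.33 times) and Hoxb 8 (46.0 per Mb, 1.09 times). Regions were placed by midpoint, so those over the outer ends of Hoxb13 and Hoxc13 counted in the flanks. The flanks of Hoxa held 14 (70.0 per Mb, 1.97 times) and those of Hoxd 2 (10 per Mb, 0.269 times). The excess of the Hoxa window thus lay mainly in its flanks and the deficit of the Hoxd window wholly so. Of the 14 flanking regions of Hoxa, 10 lay on the side of Hoxa13 and 4 on the opposite side. Just inside the border of a window lay a region at chr11:96095408-96096000 (4.41-fold and 5.87-fold), and just outside lay 1 at chr15:103142001-103143441 (15.8-fold and 19.5-fold).

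**Figure D2:**
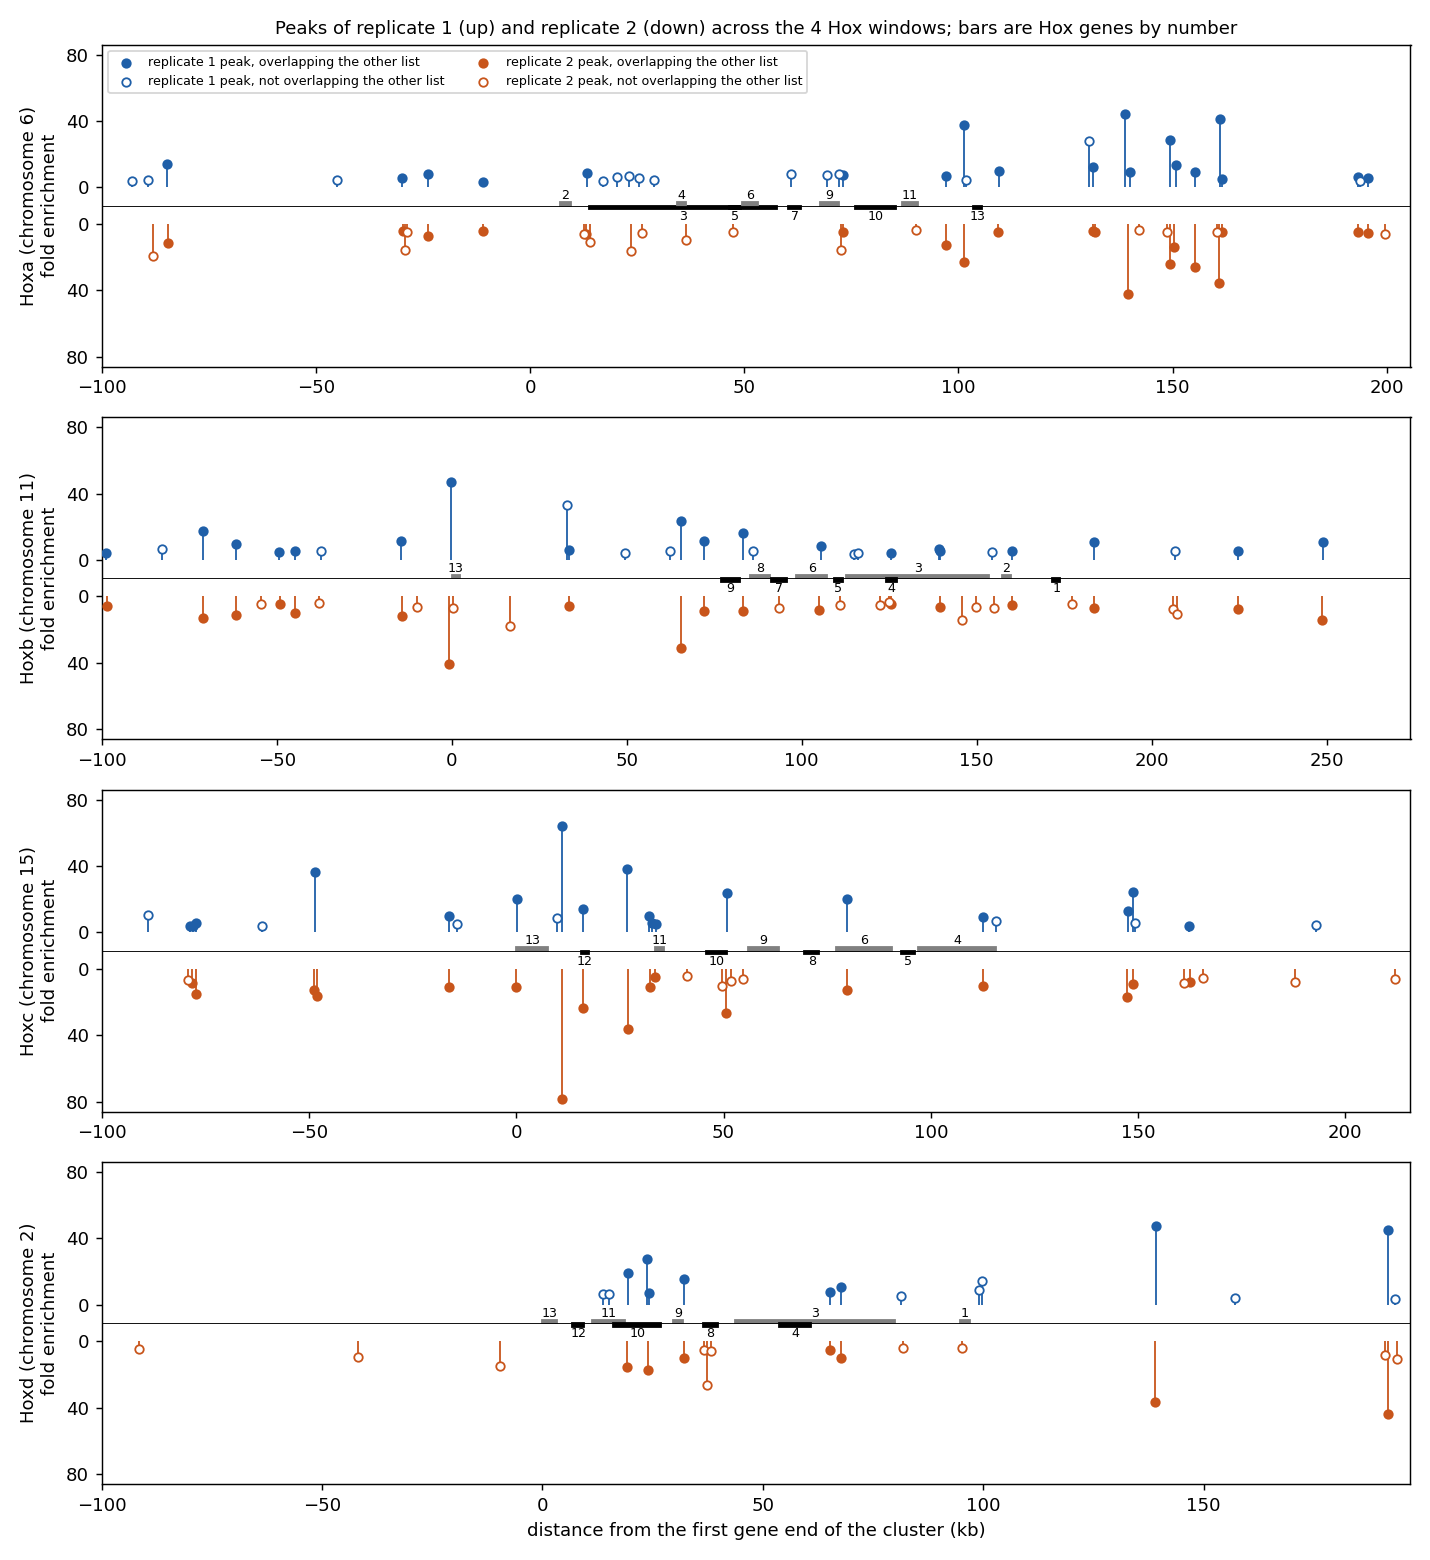
Fold enrichment of peaks in the 4 windows (vertical axis) by distance in kb from the first gene end of the cluster (horizontal axis), replicate 1 upward and replicate 2 downward, with filled points for peaks that overlap the other list and bars for Hox genes. The highest points are near Hoxc12 and Hoxc13 (64.2 and 78.5), and no filled point stands between the left edge of the Hoxd window and Hoxd11.

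Taken over all 4 windows, peak folds were near those of the whole lists, while single clusters lay on either side. The lists held 103 and 111 peaks there, of which 65 in replicate 1 overlapped the other list (63.1%, 95% exact binomial interval 53.0 to 72.4%, against 67.2% of the whole list). In replicate 2 this was 62 (55.9%, interval 46.1 to 65.3%, against 57.8%). Median folds were 7.35 and 8.11 for the lists of replicates 1 and 2, with 8.08 and 8.11 over the whole lists. Of the 60 shared regions, 11 (18.3%) had at least 20-fold in both lists, against 20.5% of all shared regions. The median region of Hoxd had 19.3-fold and 15.4-fold in replicates 1 and 2, above the 10.7 and 12.05 of the rest of its chromosome. That of Hoxa had 8.95-fold and 6.98-fold, below the 11.02 and 12.4 of chromosome 6. Hoxc had medians of 13.6 and 12.02 (10.9 and 11.7 for the rest of chromosome 15) and Hoxb of 8.88 and 8.49 (10.7 and 11.7 for the rest of chromosome 11). Over the 60 regions the median width was 686 bp, with 599 bp in Hoxa, 617 bp in Hoxb, 1064.5 bp in Hoxc and 1079 bp in Hoxd. The folds of a region differed by more than 2 times between the lists in 7 of 60, and the summits lay a median of 69.5 bp apart (74 bp over all regions).

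Of the 39 members, 25 had a shared region within 5 kb of a gene end (64.1%, interval 47.2 to 78.8%), against 57.2% of all protein-coding genes and 60.4% of the other 5254 on these chromosomes. Where peaks had to overlap reciprocally by 50% this was 43.6% against 43.3% of all genes, and with summits within 200 bp 46.2% against 48.4%. The members are neighbours and not independent: the 25 rested on 23 regions, 10 of which lay near more than 1 member. A region lay within 1 kb of an end at 11 members (28.2%, against 27% of all genes and 28.1% of the others on these chromosomes) and over the gene at 15 (38.5%, against 56.4% and 57.2%). Hox genes are short, with a median length of 3737 bp against 17169 bp, and the part of length in this lower share was not tested. Peaks of replicate 1 lay within 5 kb of 30 members (76.9%, against 68.5% and 71.3%) and peaks of replicate 2 within 5 kb of 34 (87.2%, against 74.3% and 76.8%).

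The 5' or posterior genes, of paralogue groups 9 to 13, had the regions of higher fold. A shared region lay within 5 kb of 13 of 16 posterior genes, 8 of 15 central genes (groups 4 to 8) and 4 of 8 anterior genes (groups 1 to 3). Of all protein-coding genes 57.2% had one, near the central (53.3%) and anterior (50%) shares and below the posterior share (81.25%). Within 1 kb the counts were 9 of 16, 0 of 15 and 2 of 8, against 27% of all protein-coding genes. Regions of at least 20-fold in both lists were near 6 of 16 posterior genes and near 0 of 15 central and 0 of 8 anterior genes, against 17.6% of all protein-coding genes and 18.4% of the others on these chromosomes. These 6 genes rested on 4 regions. By cluster, 4 of the 6 were in Hoxc, 1 in Hoxa, 1 in Hoxb and 0 in Hoxd. Posterior Hoxa9 and Hoxa10 had 7.35-fold and 5.11-fold at best, below the 20.4-fold and 12.97-fold of central Hoxc6. Among genes with a region, the best region had a median fold of 23.5 and 17.0 in posterior genes, 8.998 and 8.49 in central genes, and 8.88 and 8.18 in anterior genes. The classes were not compared by a test, because neighbouring genes share regions. Their median gene lengths were 3990, 3737 and 3575 bp from posterior to anterior.

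**Figure D3:**
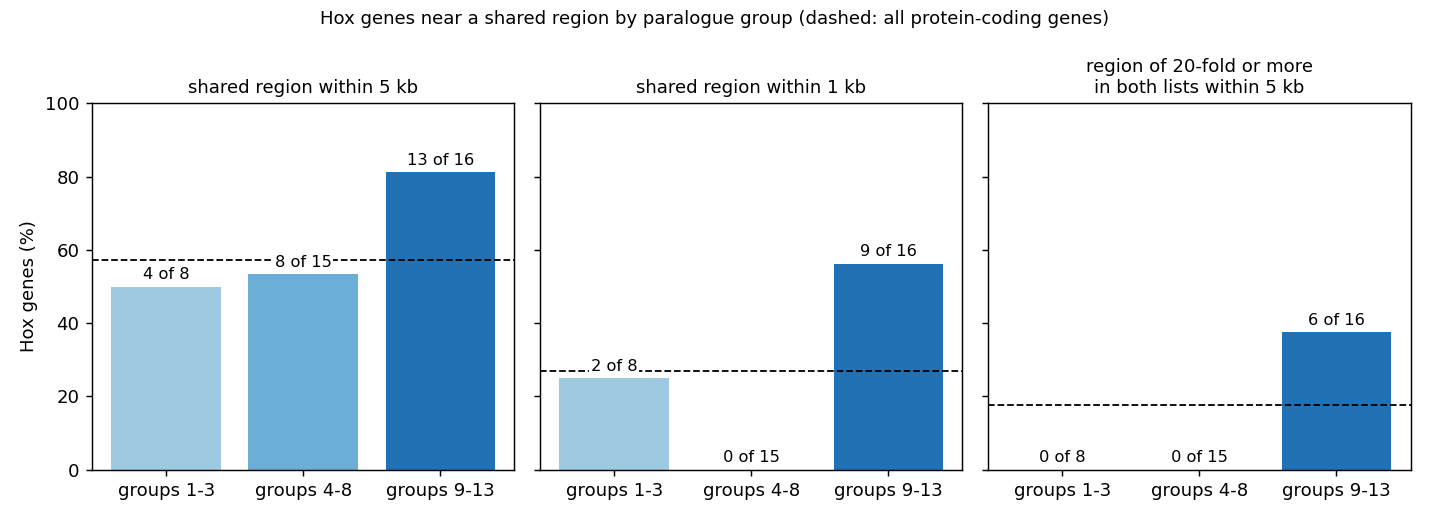
Share of Hox genes (vertical axis, %) with a shared region within 5 kb, within 1 kb, or with one of at least 20-fold in both lists within 5 kb, by paralogue group, with counts above the bars and the share of all protein-coding genes as a dashed line. Groups 9 to 13 reach 13, 9 and 6 of 16 genes and groups 4 to 8 reach 8, 0 and 0 of 15.

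Hoxc carried the strongest region of the 4 windows. Hoxc13, which acts in hair and nail formation, and Hoxc12 share the space between them with a region of 1703 bp (chr15:102931417-102933119), at 64.2-fold in replicate 1 and 78.5-fold in replicate 2. It lay 2603 bp from Hoxc13 and 3707 bp from Hoxc12, ranked 1624 of 157214 peaks by q in replicate 1 and 144 of 179630 in replicate 2, and took place 623 of 97115 shared regions by the mean percentile of q. An end of Hoxc13 was overlapped by a region of 19.8-fold and 10.8-fold (chr15:102920540-102921580), and Hoxc12 by one of 14.3-fold and 23.5-fold (chr15:102936873-102937783). Both genes were thus marked in both lists, with higher fold between them than over them.

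The region with the next place in Hoxc overlapped Hotair, the long non-coding RNA gene between Hoxc12 and Hoxc11 whose RNA is known for its association with Polycomb proteins. It had 38.1-fold and 36.4-fold (chr15:102947300-102948675) and extended past the gene end nearer to Hoxc11, at 102947946. Its summits, 6 bp apart at 102948084 and 102948078, lay past that end and so outside Hotair. Hoxc11 had 2 regions, of 9.92-fold and 10.8-fold beside the gene and of 5.14-fold and 4.94-fold inside it. Hoxc10, a regional regulator of hindlimb motor neurons, was overlapped at an end by a region of 23.5-fold and 26.6-fold (chr15:102971118-102972433), which was also the nearest to Hoxc9, 4599 bp away. Farther along, Hoxc6 held a region of 20.4-fold and 12.97-fold and Hoxc4 one of 9.55-fold and 10.5-fold. Hoxc8 and Hoxc5 had no peak of either list within 5 kb. A region of 36.4-fold and 16.5-fold lay outside the genes, 47715 bp from Hoxc13.

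In Hoxb the highest fold was at its outermost gene. Hoxb13, a posterior gene active in tail bud and prostate, was overlapped at an end by a region of 1849 bp with 47.1-fold and 40.7-fold (chr11:96192702-96194550, place 4349), the widest of the 60. The next strongest lay in the non-coding RNA gene Gm53, between Hoxb13 and Hoxb9, at 23.5-fold and 30.9-fold (chr11:96259188-96260296). A region 564 bp from Hoxb9 and 1552 bp from Hoxb8 had 16.1-fold and 8.96-fold. The regions at Hoxb6 and Hoxb5 (8.45-fold and 8.03-fold, inside Hoxb6), Hoxb2 (5.51-fold and 4.94-fold) and Hoxb4 (4.04-fold and 4.32-fold) were lower. In both lists the shared regions near the genes from Hoxb6 to Hoxb2 were thus below those at Hoxb13 and Hoxb9. This did not hold for all peaks. An unpartnered peak of replicate 2 inside Hoxb3 (chr11:96339728-96340365) had 14.1-fold, above the 8.96-fold at Hoxb9. Hoxb1, Hoxb3 and Hoxb7 had no shared region within 5 kb of an end, although Hoxb3, a gene of 40830 bp, held 2 inside, of which the one not in Hoxb4 had 6.61-fold in both lists.

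The strongest regions of the Hoxa window lay beyond its posterior end, between Hottip and Evx1 and over Evx1. Hoxa13, needed for digits and the urogenital tract, had a region 1907 bp away, inside the cluster, at 37.8-fold and 22.9-fold (chr6:52256281-52256946). Another lay inside the neighbouring gene of Hottip, a non-coding RNA, at 9.87-fold and 4.94-fold. Between Hottip and Evx1, an even-skipped homeobox gene linked to the cluster, a region at chr6:52293931-52295607 had 44.1-fold and 42.0-fold. Evx1 itself was overlapped by a region of 41.2-fold and 35.5-fold (chr6:52316001-52316613) and by a weaker one of 5.14-fold and 4.63-fold. Among the anterior genes, a region 178 bp from Hoxa3 had 8.81-fold and 6.18-fold and lay 3452 bp from Hoxa2. The region nearest to Hoxa9 and Hoxa10 had 7.35-fold and 5.11-fold.

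The middle of Hoxa had peaks in each list, but none overlapped between the lists. No shared region lay in the 59.3 kb from 52168882 to 52228216, which contain Hoxa3, Hoxa4, Hoxa5, Hoxa6, Hoxa7 and Hoxa9. This stretch held 8 peaks of replicate 1, of at most 8.08-fold, and 6 of replicate 2, among them 1 of 16.4-fold inside Hoxa3 and 1 of 15.4-fold 331 bp from Hoxa9. The 16.4-fold peak (chr6:52178635-52179407) lay just past a replicate 1 peak of 6.98-fold (chr6:52178293-52178553). The 15.4-fold peak (chr6:52227701-52228009) lay just past a replicate 1 peak of 8.08-fold (chr6:52227215-52227536). Peaks of the 2 lists could thus be close without being counted as shared. On chromosome 6, 12.1% of the gaps between neighbouring shared regions were at least as long. Of its genes, Hoxa4 (9.88-fold), Hoxa5 and Hoxa6 (the same peak, 4.94-fold) had a peak within 5 kb in replicate 2 alone and Hoxa7 (8.08-fold) in replicate 1 alone. Hoxa11, outside the stretch, had a peak of 3.71-fold in replicate 2.

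In Hoxd the regions lay over the inner posterior genes. Besides the region at the start of Hoxd10, a region of 19.3-fold and 15.4-fold (chr2:74686893-74688221) lay inside the Hoxd10 gene record and over an end of Hoxd11. The region over an end of Hoxd9 had 15.4-fold and 10.2-fold (chr2:74699736-74700846), 3769 bp from Hoxd8. Weaker regions lay inside Hoxd3, at 7.96-fold and 5.25-fold, which was the nearest to Hoxd4, and at 10.7-fold and 9.88-fold. Hoxd8 held a peak of 26.3-fold in replicate 2 (chr2:74705330-74705750) without a partner in replicate 1. Hoxd12 (6.61-fold in replicate 1), Hoxd1 and the ends of Hoxd3 had peaks without a shared region, and Hoxd13 had none.

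The longest gap in the 4 windows was on the Hoxd13 side of this cluster. Between 74523129 and 74686892, 164 kb that hold Evx2, Hoxd13 and Hoxd12, no peak of one list overlapped a peak of the other. Of this gap 119 kb lay inside the window and the rest before it. On chromosome 2, 0.557% of gaps between neighbouring shared regions were at least as long. The whole gap, with its part outside the window, held 3 peaks of replicate 1 and 5 of replicate 2, among them one of 14.5-fold in Evx2 in replicate 2. Paralogues thus differed: the best shared region within 5 kb was 64.2-fold and 78.5-fold at Hoxc13, 47.1-fold and 40.7-fold at Hoxb13, 37.8-fold and 22.9-fold at Hoxa13, and absent at Hoxd13. Evx1 was likewise under a region of 41.2-fold and 35.5-fold, and Evx2 under none. On the Hoxd1 side, regions of 47.7-fold and 36.8-fold (chr2:74806643-74807895) and, inside Mtx2, of 45.2-fold and 43.9-fold (chr2:74859676-74860573) were the strongest of the window.

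**Figure D4:**
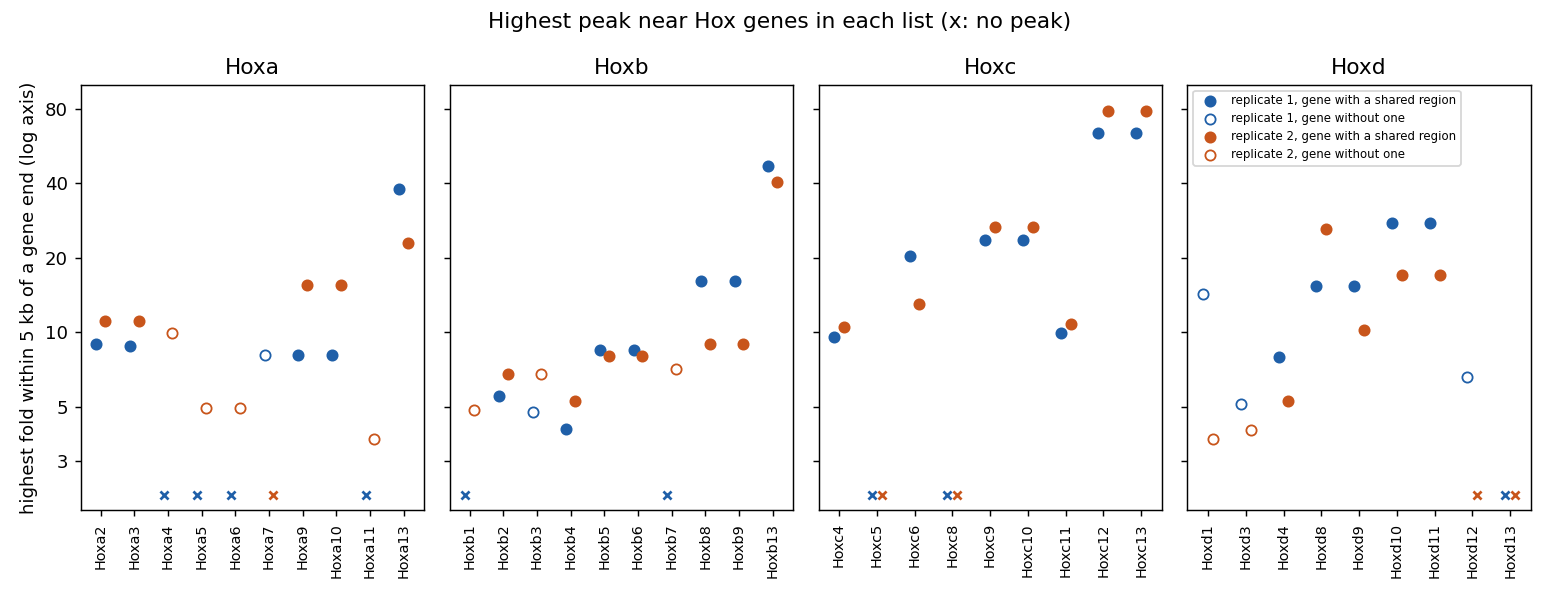
Highest fold of any peak within 5 kb of either end of Hox genes (vertical log axis) in replicate 1 (blue) and replicate 2 (orange), by cluster and paralogue group, filled where the gene has a shared region nearby and with a cross where a list has no peak. Hoxb4 stands at 4.04 and 5.25 and Hoxb13 at 47.1 and 40.7, and Hoxd13 has a cross in both lists.

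In all, 14 members had no shared region within 5 kb of an end. Of these, 3 (Hoxc5, Hoxc8 and Hoxd13) had no peak of either list, against 19.9% of all protein-coding genes. Peaks of replicate 2 alone were near 6 of the 39 members (11.3% of all genes), of replicate 1 alone near 2 (5.59%), and of both lists without a shared region near 3 (6.08%). Unpartnered peaks in the 4 windows were lower than partnered ones, with median folds of 5.51 against 9.87 in replicate 1 and 6.18 against 10.3 in replicate 2. The highest were at 33.1-fold and 27.8-fold in replicate 1, between Hoxb13 and Hoxb9 (chr11:96227150-96227582) and between Hottip and Evx1 (chr6:52285627-52286043), and that at Hoxd8 in replicate 2. Those of replicate 1 lay just before shared regions of lower fold, at chr11:96227616-96228021 and chr6:52286197-52287313.

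The 6 microRNA genes of the clusters lay between 917 and 13497 bp from a shared region. Both miR-196 and miR-10 are known to target Hox transcripts. No shared region overlapped any of the 6 microRNA genes (5.78% of all 1228 microRNA genes were overlapped, so 0 of 6 is near the background). Of the 6, 3 had a region within 2 kb (22.9% of all microRNA genes did), and these were the miR-196 genes. Mir196a-2 had it at 917 bp (23.5-fold and 26.6-fold), Mir196a-1 at 1017 bp (11.4-fold and 8.96-fold) and Mir196b at 1535 bp (7.35-fold and 5.11-fold). Within 5 kb 4 of the 6 had one, Mir10a included, and the share of all microRNA genes at 5 kb was not taken. Mir10a lay 2475 bp, Mir10b 6965 bp and Mir615 13497 bp from the nearest region. The mature 5p sequences (RefSeq, GRCm38.p6) are shown for the paralogous genes, with the seed, bases 2 to 8, in capitals.

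miR-196a-5p, from Mir196a-1 and Mir196a-2: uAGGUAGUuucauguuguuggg
miR-196b-5p, from Mir196b: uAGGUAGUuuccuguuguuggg
miR-10a-5p, from Mir10a: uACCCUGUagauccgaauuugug
miR-10b-5p, from Mir10b: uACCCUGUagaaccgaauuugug

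The miR-196 members share the seed AGGUAGU and the miR-10 members the seed ACCCUGU. Of 35 long non-coding RNA genes in the windows, 11 were overlapped by a shared region (39.3% of all such genes were) and 18 had one within 5 kb (53.5% of all). Halr1, a non-coding gene in the Hoxa window, had none within 5 kb. Of 7 other protein-coding genes that reach into the windows, 4 were overlapped by a region of the window and 2 by regions beyond it alone (56.4% of all protein-coding genes were overlapped). The first group includes Calcoco2 (17.6-fold and 12.97-fold), an autophagy receptor gene.

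Genes that act with Hox proteins or on Hox clusters were counted in the same way. Of 9 genes of the Pbx, Meis and Pknox cofactors, which bind DNA together with Hox proteins, 8 had a shared region within 5 kb, led by Meis1 (65.1-fold and 70.1-fold) and Pknox1 (42.6-fold and 55.3-fold). Of 19 Polycomb genes 13 did, led by Ezh1 (47.6-fold and 55.6-fold), a histone methyltransferase, and Phc1 (24.2-fold and 38.9-fold). Of 10 Trithorax genes 4 did, led by Rbbp5 (18.4-fold and 21.0-fold) and Kmt2a (20.6-fold and 17.0-fold), the gene of a methyltransferase that keeps Hox genes active. Of 6 caudal and ParaHox genes 3 did, led by Pdx1 (72.4-fold and 51.3-fold) and Cdx1 (34.2-fold and 19.1-fold). The background of 57.2% applies to each list, and lists of 6 to 19 genes leave wide intervals (51.8 to 99.7% for the cofactors, 12.2 to 73.8% for the Trithorax genes).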

How the data were processed

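The 2 lists of the authors were in narrowPeak layout without header, and are pooled lists with no SD or n. Per the submitters' processing notes, Bowtie2 2.3.2, Picard 2.9.2, MACS2 2.1.1 and build mm10 were used; the sources used here do not give treatment, control or threshold. The deposited fold is the ratio at the summit to the background the caller estimated, the deposited q is a −log10 value, the deposited score follows from q, and summits are in bp from the peak start. These are used within a list only. Sequencing depth is unknown, so no interval or floor that needs it is given.

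Genes, promoters and microRNAs came from RefSeq tables of GRCm38.p6, the assembly behind mm10. Regions count in a window by their midpoint. A chromosome was measured from its first to its last peak or gene, outside the Hox window. Empty stretches at the start of chromosomes 6, 11 and 15 were therefore counted, and chromosome 2 had none. Places rank the shared regions by q: the percentile of the best peak was taken in each list and both were averaged. Intervals are exact (Clopper-Pearson) and cover counting error only. The members, lists and classes were chosen with earlier results of these data known, and nothing was tested. Per cluster, the genes at the strongest shared regions, members without peaks, fixed non-coding and microRNA genes and the 2 best genes of each further list were named; the remaining members, Calcoco2, Gm53 and unpartnered peaks were named after their values were seen. Of the members, 1 is counted in the totals but is not reported singly or drawn here. Overlap counting was checked on simulated intervals with known answers. Tables were made in pandas 2.3.3 and numpy 2.4.6 under Python 3.11.15, intervals in scipy 1.17.1 and plots in matplotlib 3.10.9.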

Additional observations from a re-analysis of the deposited data

How the results depend on the processing

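No paired analysis was possible because the 2 lists belong to 1 condition and nothing was tested. The count of members near a region (25 of 39, 64.1% against 57.2% of all genes) was 24 at −log10 q of at least 5 (54.3% of all genes), 23 at fold of at least 5 (51.2%), 17 at a reciprocal overlap of 50% (43.3%), 18 with summits within 200 bp (48.4%) and 32 at 10 kb (74.5%). It was 11 within 1 kb (27% of all genes), 16 within 2 kb (37.3%), 15 over the gene (56.4%), 3 among the 10000 strongest peaks (6.98%), and 30 to 34 in single lists (68.5 and 74.3%). The members' share was thus near or below that of all genes at reciprocal overlap, by summits, within 1 kb, among the strongest peaks and over the gene. The spread for the density ratios is the SD between the peak ratios of the 2 single lists, which are not ratios of shared regions. It rests on 2 values and does not measure the uncertainty of a ratio. For Hoxd it was 0.00986, and each other setting lay outside it, single lists included. Outside it lay, for Hoxa (1.75), 1.45 at fold of at least 5, 1.94 at reciprocal overlap, 1.33 with no flank, 1.91 and 1.11 with flanks of 50 and 250 kb, and 1.97 in the flanks alone. For Hoxb (1.14) these were 1.09 at fold of at least 5, 1.31 by summits, 1.09 with no flank, 0.917 with 250 kb and 1.19 in the flanks. For Hoxc (1.39) they were 1.29 at reciprocal overlap, 1.55 by summits, 1.89 with no flank, 1.78 with 50 kb and 1.10 in the flanks. Hoxd (0.634) gave 0.695 by q, 0.771 by fold, 0.816 at reciprocal overlap, 0.694 by summits, 1.39 with no flank, 0.82 and 0.586 with 50 and 250 kb, and 0.269 in the flanks. Among the 10000 strongest peaks each window kept 1 region, with ratios of 1.39, 0.929, 1.51 and 1.32 for Hoxa, Hoxb, Hoxc and Hoxd. These ratios also lay outside the spread of their cluster. Single lists gave 1.74 to 1.93, 1.13 to 1.18, 1.23 to 1.38 and 0.824 to 0.838. Besides those of Hoxd, the Hoxa ratio of 1.93 in replicate 1 and the Hoxc ratio of 1.23 in replicate 2 lay outside it. The Hoxb ratio thus fell below 1 under 2 settings and the Hoxd ratio rose above 1 under 2. The causes were not tested. The flanks alone were chosen after seeing the data.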
